A study of Mus musculus with 2 samples.

Results

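Heat shock proteins of the cytosol and the cochaperones that work with them were compared between 2 pools of mouse morulae. The dsNat10 embryos had received double-stranded RNA directed at Nat10, and the dsGFP embryos, the control, had received double-stranded RNA directed at GFP, a jellyfish gene that mice lack. All 10 genes chosen by symbol were present among the 12836 genes of the deposited table. They are the HSP70 chaperones Hspa8, Hspa1a and Hspa1b, the HSP110 proteins Hspa4 and Hsph1, the HSP90 chaperones Hsp90aa1 and Hsp90ab1, the J-domain proteins Dnaja1 and Dnajb1, and the transcription factor Hsf1. Both groups were embryos of the ICR strain, both carried injected double-stranded RNA, and the labels give neither the stage of injection nor a group without injection. The design text names 50 morulae, but the sources used here do not say whether each library held that many. Each group was 1 library of pooled embryos, so no difference has a replicate check, no p-value is given, and each value describes these 2 libraries. In pooled embryos, fewer cells of a type and less RNA per cell cannot be told apart.

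Chaperones of the HSP70 family bind stretches of unfolded protein and release them in a cycle driven by ATP. J-domain proteins bring clients to HSP70 and start ATP hydrolysis, and proteins of the HSP110 family act as exchange factors that let HSP70 take up fresh ATP. HSP90 takes over part of these clients, among them many kinases and receptors, with the help of cochaperones such as Stip1, which links it to HSP70. Hsf1 is the main activator of heat shock genes under stress and binds heat shock elements, which are inverted repeats of the letters GAA and TTC. In the mouse, Hspa1b is among the earliest genes that the embryo transcribes, and embryos need Hsf1 from the egg.

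The libraries held 28303129 estimated reads in dsNat10 and 29139243 in dsGFP. Nat10, the targeted gene, had 37 reads in dsNat10 against 886 in dsGFP. All 6 morula markers had reads in both libraries, with a summed level of 17316 TPM in dsNat10 and 16033 TPM in dsGFP, most of it Dppa5a (15850 TPM in dsNat10 and 14236 TPM in dsGFP). Among the others, Krt8 was called lower by the size rule given below (391 TPM in dsNat10 and 787 TPM in dsGFP), Pou5f1 and Cdh1 were 1.66-fold and 1.82-fold lower, and Gata3 and Tfap2c were 1.33-fold and 1.27-fold higher. Of 6 cumulus cell markers, 2 were listed, with a summed level of 23.9 TPM in dsNat10 and 27.1 TPM in dsGFP, and Amh had 0 reads in dsNat10 and 5 in dsGFP. Of 7 markers of blood cells and fibroblasts, 4 were listed, with 75.2 TPM in dsNat10 and 82.6 TPM in dsGFP. Of these, Pecam1 had 31.1 TPM in dsNat10 and 16.4 TPM in dsGFP, Cd68 had 32.7 and 40.7 TPM in dsNat10 and dsGFP, Hba-a1 had 11.3 TPM in dsNat10 and 25.3 TPM in dsGFP with a fractional count, and Col1a1 had 0 reads in dsNat10 and 9 in dsGFP. The part of such cells in the results was not tested. TPM is a level per gene length, scaled so that each library sums to 1000000. CPM, used for ratios, is reads per 1000000 reads after TMM scaling and is not corrected for length.

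The inducible HSP70 genes Hspa1a and Hspa1b are near-identical copies, and their sequences are shown first because, of the 10 genes, they differed most between the libraries. Hspa1a (Entrez gene 193740) lies on GRCm38.p6 chromosome 17 at 34969359 to 34972156 and Hspa1b (Entrez gene 15511) at 34956429 to 34959238, both on the minus strand and separated by 10120 bases. In GENCODE M21 each is made of 1 exon. The 250 bases before their starts, from RefSeq, are printed 5′ to 3′ on the strand of the gene, and capitals mark a heat shock element of 2 units, GAANNTTC:
Hspa1a, chr17:34972157-34972406: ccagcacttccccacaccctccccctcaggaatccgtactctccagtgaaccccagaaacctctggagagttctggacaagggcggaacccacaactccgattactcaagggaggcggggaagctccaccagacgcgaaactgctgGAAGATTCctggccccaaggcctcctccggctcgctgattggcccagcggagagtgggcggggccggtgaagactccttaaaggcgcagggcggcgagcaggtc
Hspa1b, chr17:34959239-34959488: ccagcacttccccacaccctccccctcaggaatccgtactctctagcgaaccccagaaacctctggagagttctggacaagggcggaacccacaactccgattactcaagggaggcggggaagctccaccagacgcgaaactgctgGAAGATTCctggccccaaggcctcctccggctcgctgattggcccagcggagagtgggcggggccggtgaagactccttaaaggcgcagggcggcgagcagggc
The stretches differ at 3 positions, C44T, T47C and T249G, counted from 1 at the 5′ end with the base of Hspa1a given before that of Hspa1b. The element lies 104 to 97 bases before the start in both.

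The promoter table held 6 of the 10 genes, namely Hspa1a, Hspa1b, Hspa4, Hsph1, Dnaja1 and Dnajb1. An element of 2 units (GAANNTTC or TTCNNGAA, which both read alike on either strand) was found within 250 bases before a start for 4 of these 6, against 14.5% of all 27025 genes in that table. The near-identical HSP70 pair makes up 2 of the 4. Counted by listed start, 5 of the 10 starts of these genes had the element, against 12.8% of all 32851 starts. Besides the HSP70 pair the 4 genes were Dnaja1 and Hsph1, shown as windows of the same build with the element in capitals:
Dnaja1, chr4:40722324-40722371, plus strand: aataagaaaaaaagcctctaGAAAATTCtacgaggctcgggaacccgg
Hsph1, chr5:149636342-149636389, minus strand: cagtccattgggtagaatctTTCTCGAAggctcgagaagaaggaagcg
For Dnaja1 the element lies 124 to 117 bases before 1 of 3 listed starts. For Hsph1 it lies 33 to 26 and 54 to 47 bases before the 2 listed starts. Neither Hspa4 nor Dnajb1 held these letters in this window. An element of 3 units, in which a further GAA or TTC follows after NN so that the units alternate, was found in none of the 6 and in 0.514% of all genes. A match describes these letters only.

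The likeness of Hspa1a and Hspa1b goes on into the transcripts and bears on how their reads were counted. The coding sequences were identical in 99.4% of aligned bases, with 8 mismatches, and the 5′ untranslated parts in 98.7%. Over the 3′ untranslated part the identity was 47.3%, as the plot of identity along the transcript shows. Of all 100-base words of the Hspa1a transcript, 47.1% also occur in that of Hspa1b, and 4.67% in transcripts of the neighbouring gene Hspa1l. Sequencing was paired-end, and pairs of reads that both lie wholly in such stretches cannot be assigned to 1 of the genes. The deposited estimated counts in dsGFP were fractional for both, 652.14 for Hspa1a and 700.86 for Hspa1b, and their sum was the whole number 1353.

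**Figure D1:**
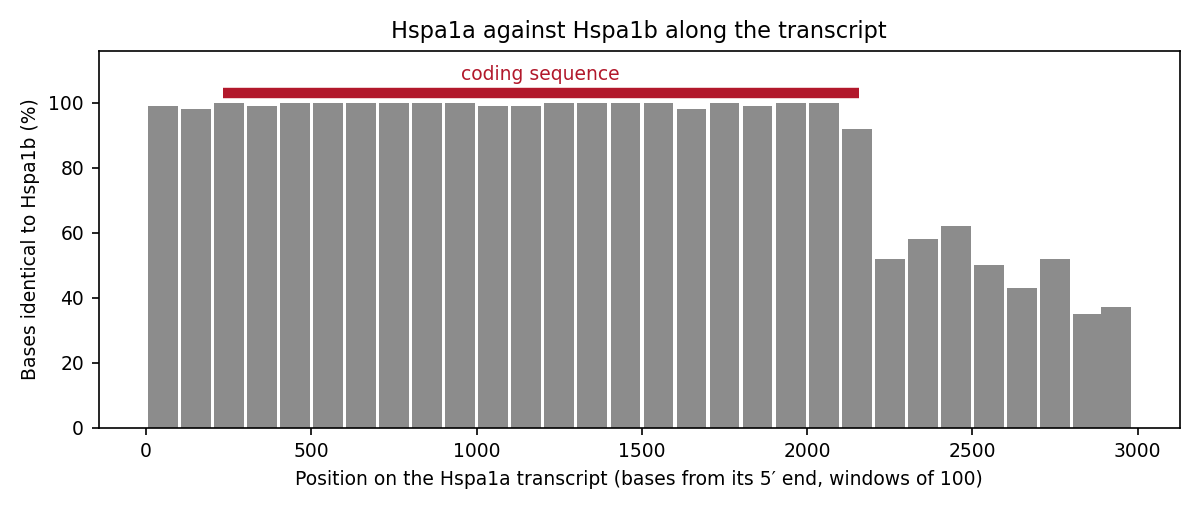
Percent of bases of the Hspa1a transcript (windows of 100 bases along the x axis, from the 5′ end) that are identical to Hspa1b in a global alignment. Windows within the coding sequence, marked by the red line, lie at 98.0% or above up to base 2100, and windows from base 2201 on lie between 35.0% and 62.0%.

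No read was assigned to either inducible gene in dsNat10. Hspa1a had 0 reads in dsNat10 against 652.14 in dsGFP, or 0 against 12.3 TPM. Hspa1b had 0 reads in dsNat10 against 700.86 in dsGFP, or 0 against 13.1 TPM. Because the split between the copies is uncertain, their sum is the safer value: 0 reads in dsNat10 against 1353 in dsGFP, at least 446-fold lower in dsNat10. The bound sets dsNat10 at 3 counts, and it covers counting error only.

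A level of 0 in dsNat10 was more frequent at the level of each copy than at that of their sum. Each copy lies in the range from 600 to under 750 reads in dsGFP, and of the 498 genes there, 40 (8.03%) had 0 reads in dsNat10. The reverse, 0 reads in dsGFP with as many reads in dsNat10, held for 8 of 471 genes (1.70%). The sum of the pair lies in the range from 1000 to under 2000 reads in dsGFP, and of the 1604 genes there, 12 (0.748%) had 0 reads in dsNat10. The reverse held for 0 of 1600 genes. The bound above does not cover such zeros, and their part in the result was not tested.

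Hspa8, the constitutive HSP70 and the most abundant of the 10 genes, differed far less. Hspa8 (chromosome 9, 40801276 to 40805202) had 10175 TPM in dsNat10 and 12130 TPM in dsGFP, which placed it at rank 5 of all genes in dsNat10 and rank 3 in dsGFP. Its CPM was 1.24-fold lower in dsNat10, with a 95% counting interval (exact, Clopper-Pearson) of 1.24 to 1.25. Within the reads of the cytosolic HSP70 genes Hspa8, Hspa1a, Hspa1b and Hspa2, the inducible pair made up 0% in dsNat10 (exact 95% interval up to 0.000976%) and 0.284% in dsGFP (0.269% to 0.300%). Hspa8 so made up nearly all of this pool in both libraries. Its coding sequence was identical to that of Hspa1a in 74.1% of aligned bases.

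The HSP110 proteins Hspa4 and Hsph1 went opposite ways. Hspa4 (chromosome 11, 53259814 to 53300479) had 6660 reads in dsNat10 against 2867 in dsGFP, or 77.2 against 31.6 TPM, and was 2.35-fold higher in dsNat10 (2.25 to 2.45). It was the 1 gene of the 10 called higher by the size rule. That rule asks for a mean of 5 CPM or more, a difference of at least 2-fold with 1 CPM added to both libraries, and a counting interval that leaves out equality. Hsph1 (chromosome 5, 149616843 to 149636498) had 6644 reads in dsNat10 against 9376 in dsGFP, or 104 against 140 TPM, and was 1.40-fold lower (1.35 to 1.44), short of the rule. Hspa4 made up 50.1% of the reads of the pair in dsNat10 (49.2% to 50.9%) and 23.4% in dsGFP (22.7% to 24.2%). This share is taken within a library and does not depend on the scaling between libraries. The coding sequences of both were identical in 64.6% of aligned bases, no 50-base word of either occurs in another gene's transcript, and their counts are whole.

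**Figure D2:**
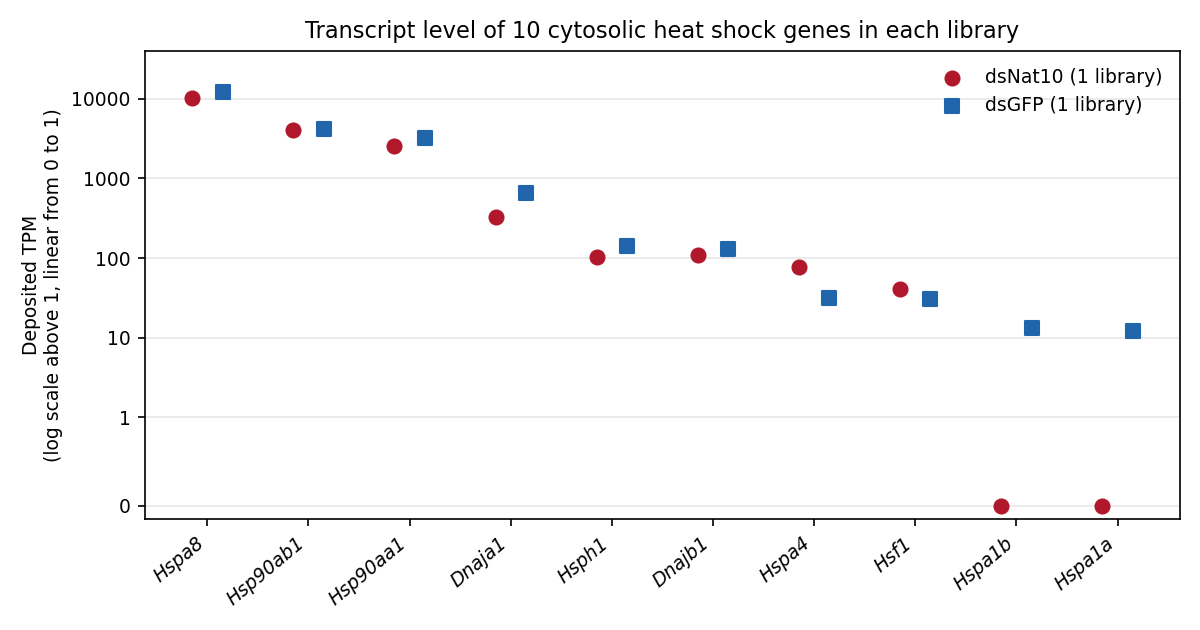
Deposited TPM (y axis, log scale above 1 and linear from 0 to 1) of each gene in dsNat10 (red circles) and dsGFP (blue squares), 1 library each, so no error bar can be given. Hspa8, Hsp90ab1 and Hsp90aa1 lie above 2500 TPM in both libraries, Hspa4 and Hsf1 are higher in dsNat10, and Hspa1a and Hspa1b are at 0 in dsNat10.

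Dnaja1, a J-domain protein that hands clients to HSP70, was called lower. Dnaja1 (chromosome 4, 40722468 to 40734965) had 20066 reads in dsNat10 against 42489 in dsGFP, or 324 against 651 TPM. It was 2.10-fold lower in dsNat10 (2.06 to 2.13). Of 114 genes whose mean reached 1000 CPM it was the 1 gene called lower (0.877%), while 2 were called higher (1.75%). The mean of Dnaja1, 1087 CPM, lies close to that cut. At a mean of 50 CPM or more, 4.62% of 3546 genes were called lower. Krt8, at a mean of 664 CPM, had a log2 ratio of -1.07. The log2 ratio of Dnaja1, also -1.07, lies close to the limit of the rule and ranged from -1.08 to -1.01 over the settings tried. Dnajb1 (chromosome 8, 83608175 to 83612653), the J-domain protein best known as a stress-induced partner of Hspa1a and Hspa1b, had 110 TPM in dsNat10 and 132 TPM in dsGFP. It was 1.25-fold lower (1.21 to 1.29) and not called. Set against Hspa8 in the same library, there were 3.18 TPM of Dnaja1 per 100 TPM of Hspa8 in dsNat10 and 5.37 in dsGFP, and 1.08 of Dnajb1 in dsNat10 and 1.09 in dsGFP. The ratio of Dnajb1 to Hspa8 was thus nearly alike in both libraries and that of Dnaja1 was not.

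The HSP90 chaperones were the next most abundant after Hspa8 and neither was called. Hsp90ab1, the constitutive form (chromosome 17, 45567778 to 45573261), had 4098 TPM in dsNat10 and 4167 TPM in dsGFP, and was 1.06-fold lower (1.05 to 1.07). Hsp90aa1, the form more inducible by stress (chromosome 12, 110691036 to 110696395), had 2582 TPM in dsNat10 and 3168 TPM in dsGFP, and was 1.28-fold lower (1.27 to 1.29). Hsp90aa1 made up 42.0% of the reads of both HSP90 genes in dsNat10 (41.8% to 42.1%) and 46.6% in dsGFP (46.4% to 46.8%). These narrow intervals cover counting error only, and without replicates the spread between pools of embryos is unknown.

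Hsf1 (chromosome 15, 76477362 to 76501155), which drives the stress-induced genes, had 1692 reads in dsNat10 against 1252 in dsGFP, or 41.3 against 30.4 TPM. It was 1.37-fold higher in dsNat10 (1.27 to 1.47), short of the size rule. Hspa4 and Hsf1 were the genes of the 10 with a ratio above 0, and the other 8 were below 0, against 49.5% of 8738 genes. The 8 include Hspa1a and Hspa1b, which share reads. With 0 reads in dsNat10 they passed the mean filter only through dsGFP, so their direction was fixed by that filter.

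By the size rule 1 of the 10 genes was called higher and 3 were called lower. Of all 8738 genes whose mean reached 5 CPM, 15.2% were called higher and 15.3% lower. The 3 lower genes include both copies of the HSP70 pair, whose reads are shared and which passed the mean filter only through dsGFP. At a mean of 50 CPM or more, where 8 of the genes remain, 1 was called higher and 1 lower, against 4.71% and 4.62% of 3546 genes. The median log2 ratio of the 10 genes was -0.34, against 0.01 for all 8738 genes. At 200 CPM or more, the 6 genes that remain had a median of -0.34 and all 1126 genes one of -0.04. There, 80% of all genes lie between log2 ratios of -0.55 and 0.50, and Hspa8, Hsp90aa1, Hsp90ab1, Dnajb1 and Hsph1 lie within this range. Only Dnaja1 of these 6 lies outside it.

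**Figure D3:**
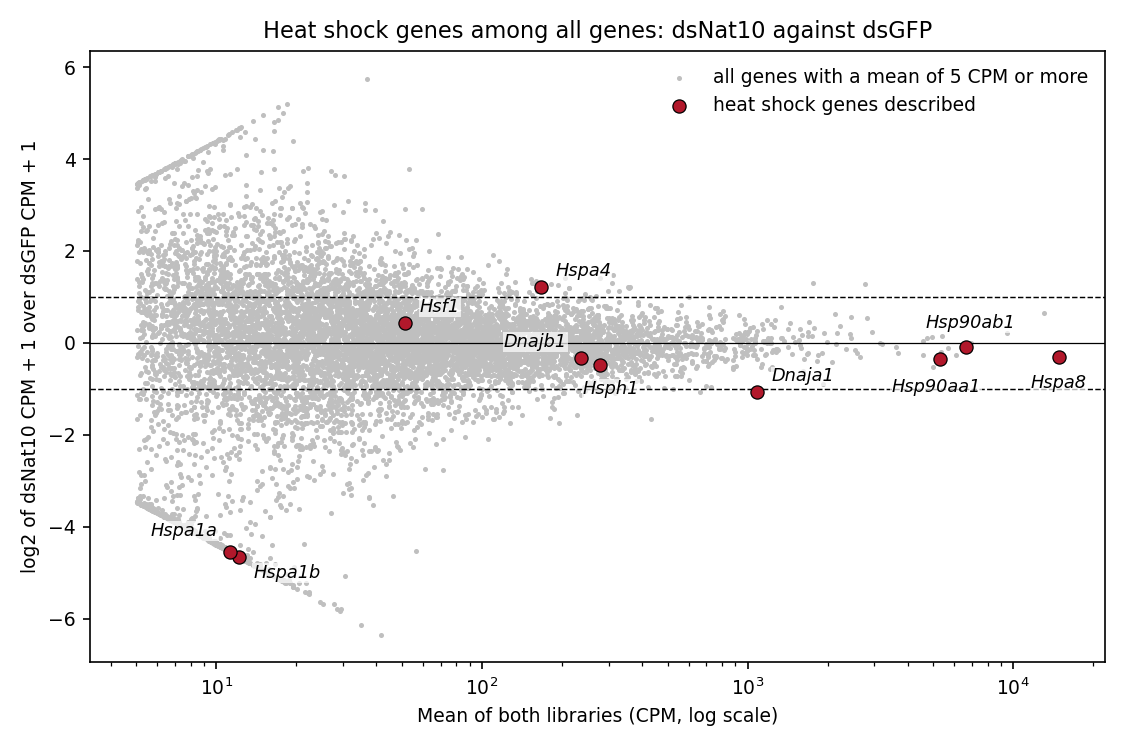
Log2 ratio of dsNat10 to dsGFP, with 1 CPM added to each (y axis), against the mean of both libraries (x axis, CPM, log scale) for 8738 genes in grey and the 10 heat shock genes in red. Dashed lines mark 2-fold. Hspa1a and Hspa1b lie on the lower edge formed by genes at 0 in dsNat10. Dnaja1, at -1.07, is the 1 gene called lower among those with a mean of 1000 CPM or more.

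Near-identical sequence is not limited to the HSP70 pair. Of the 100-base words of the Hspa8 transcript, 62.8% also occur in transcripts of other annotated genes, most of them in the processed pseudogene Gm15459 (58.5%). The share was 47.5% for Hsp90aa1, with 39.6% in Gm12346, and 14.8% for Dnaja1, with 13.0% in Gm15542. Gm15542 is annotated as a processed pseudogene, and Gm12346 as a transcribed processed pseudogene. These 3 genes have no row among the genes analysed here, and the counts of Hspa8, Hsp90aa1 and Dnaja1 are whole numbers. The sources used here do not say how reads that fit several places were treated. No 100-base word of Hsp90ab1, Dnajb1, Hspa4, Hsph1 or Hsf1 occurs in another gene. Of the 10 genes, Hspa1a and Hspa1b alone had fractional counts, against 23.2% of all genes in the table.

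Cochaperones of HSP90 had ratios mostly below 0. Of 21 that passed the mean filter, 18 were below 0, against 49.5% of all 8738 genes. The median log2 ratio of the 21 was -0.39. Of the 21, 5 were called lower and 0 higher, against 15.3% and 15.2% of all genes. The lower count was 3 of 19 at a minimum mean of 20 CPM and 3 of 20 in TPM or FPKM. It was 3 of 21 with a pseudocount of 5 CPM and 8 of 21 at a limit of 1.5-fold. Of all genes, 502 of 5746 were called lower at a minimum mean of 20 CPM, 834 of 7445 in TPM and 691 of 6655 in FPKM. With a pseudocount of 5 CPM it was 1138 of 8738, and at 1.5-fold 2081 of 8738. Stip1, the adaptor between HSP70 and HSP90 and the most abundant, had 1748 TPM in dsNat10 and 2092 TPM in dsGFP and was 1.25-fold lower (1.23 to 1.26), not called. Ahsa2, a relative of the HSP90 ATPase activator Ahsa1, had 6 reads in dsNat10 against 787 in dsGFP, a ratio of 130-fold lower (59.4 to 355). Ahsa2 passed the mean filter only through dsGFP (0.21 CPM in dsNat10 and 27.3 CPM in dsGFP). Tomm34, which binds HSP70 and HSP90, was 5.0-fold lower (4.32 to 5.80). Rpap3, a part of the R2TP complex that works with HSP90, was 2.16-fold lower (2.0 to 2.34), and Cdc37l1 2.14-fold lower (1.86 to 2.46). Nudc, the fifth of those called, had 5897 reads in dsNat10 against 12040 in dsGFP and is named here after its values were seen.

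Other J-domain proteins went both ways, with 3 of 22 called higher, 3 called lower and a median of -0.08, against 15.2% and 15.3% of all genes. Without the mean filter 3 of 27 were called higher and 8 lower, against 1681 and 3252 of 12830 genes. At 1.5-fold the counts were 3 and 6 of 22, against 2196 and 2081 of 8738 genes. Of the 27 listed, 6 had 0 reads in dsNat10 and 0 had 0 reads in dsGFP, against 2657 and 458 of all 12836 genes. Dnajb6, a J-domain protein known for holding back aggregates and the most abundant of them, had 726 TPM in dsNat10 and 709 TPM in dsGFP. Dnajc10, a disulfide reductase of the endoplasmic reticulum, was 3.37-fold higher (3.09 to 3.69). Dnajc5 (1981 reads in dsNat10 against 986 in dsGFP) and Dnajc13 (1818 against 679) were the other higher genes, named after their values were seen. Dnajb2 was 4.69-fold lower (4.10 to 5.39) and Dnajc9, a chaperone of histones, 2.75-fold lower (2.60 to 2.90). Dnajc25 had 0 reads in dsNat10 against 382.01 in dsGFP, at least 126-fold lower, but its count is fractional and uncertain. It passed the mean filter only through dsGFP, at 13.2 CPM there.

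Further relatives of HSP70 and its partners were few. Of 3 other HSP70 family genes that passed the filter, 0 were called higher and 1 lower, against 15.2% and 15.3% of all genes, with a median of 0.28. The lower gene was Hspa2, the form known from spermatocytes, with 30 reads in dsNat10 against 421 in dsGFP (13.9-fold lower, 9.58 to 20.8). Hspa2 passed the mean filter only through dsGFP (1.05 CPM in dsNat10 and 14.6 CPM in dsGFP). The lower count of this list was 0 at a minimum mean of 20 CPM, in TPM and in FPKM, where 1 gene of it remained. Hspa14, a ribosome-bound HSP70 and the most abundant, had 325 TPM in dsNat10 and 232 TPM in dsGFP, 1.35-fold higher (1.31 to 1.39) and not called. Of 8 exchange factors and other partners of HSP70, 1 was called higher and 0 lower, against 15.2% and 15.3% of all genes, with a median of 0.11. Bag1, an exchange factor, was 2.31-fold higher (2.06 to 2.60), and Stub1, a ubiquitin ligase that marks chaperone clients, had 239 TPM in dsNat10 and 282 TPM in dsGFP with fractional counts. None of 4 small heat shock proteins (median 0.11) and none of 3 paralogues or regulators of Hsf1 (median 0.37) was called, against 15.2% and 15.3% of all genes. Without the mean filter 1 of 6 small heat shock proteins was called higher and 1 lower. Of 5 paralogues or regulators 2 were then called higher and 0 lower. Of 12830 genes without the filter, 1681 were called higher and 3252 lower. In those lists the most abundant genes were Cryab, at 295 TPM in dsNat10 and 170 TPM in dsGFP with a fractional count, and Hsbp1, which binds and restrains Hsf1, at 272 TPM in dsNat10 and 202 TPM in dsGFP.

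A list of 13 chaperones of the endoplasmic reticulum and mitochondria was set beside the lists above. It does not hold all such chaperones. Dnajc10 of the endoplasmic reticulum, called higher, was counted with the J-domain proteins. Of the 13 listed here, 11 had a ratio below 0, against 49.5% of all genes. Of the 13, 1 was called higher and 1 lower (against 15.2% and 15.3% of all genes), and the median was -0.55. At a limit of 1.5-fold, 6 were called lower, against 2081 of all 8738 genes. Hspa5, the HSP70 of the endoplasmic reticulum, had 308 TPM in dsNat10 and 576 TPM in dsGFP and was 1.94-fold lower (1.90 to 1.98), just short of the rule. Hyou1, its exchange factor related to Hspa4, was 2.83-fold higher (2.58 to 3.10). Sil1, another exchange factor of Hspa5, was lower, with 344.21 reads in dsNat10 against 959 in dsGFP and a fractional count. Over all 74 other chaperone genes that passed the filter, 5 were called higher and 10 lower, against 15.2% and 15.3% of all genes. Of these 74, 49 (66.2%) had a ratio below 0, against 49.5% of all 8738 genes. The lists overlap in function with the 10 genes and were compared by count and median only, so no difference between them and other genes was tested.

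**Figure D4:**
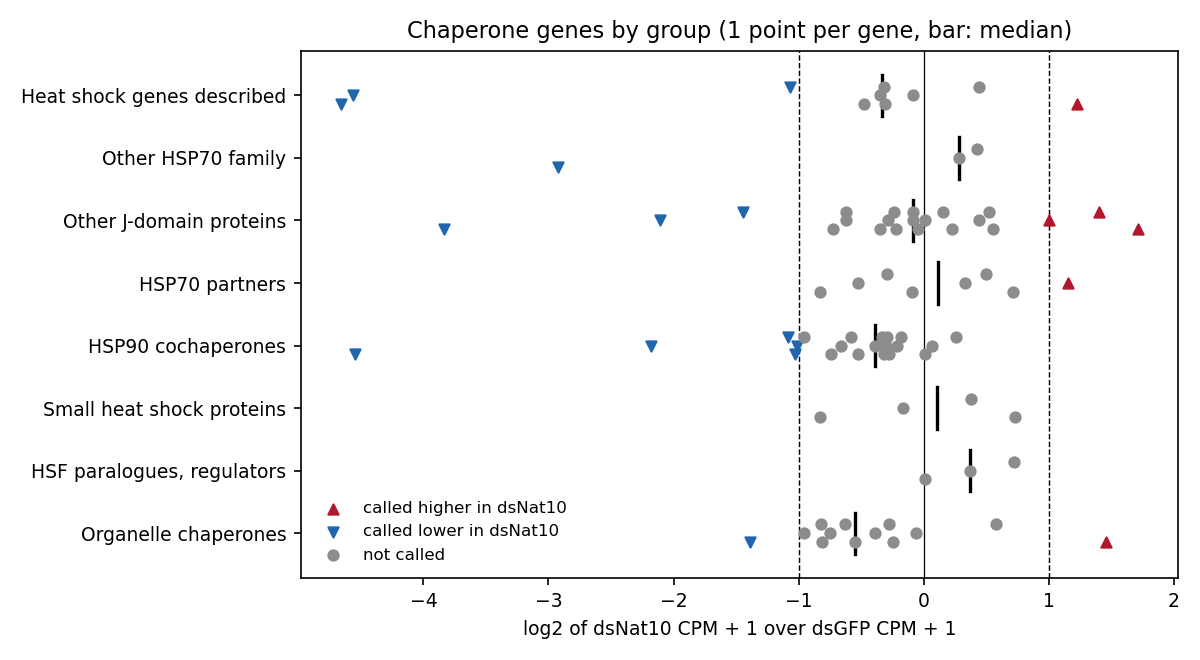
Log2 ratio of dsNat10 to dsGFP, with 1 CPM added to each (x axis), for each gene that passed the mean filter, by group of chaperone genes (y axis). Triangles mark genes called higher (red, pointing up) or lower (blue, pointing down), and grey circles genes not called. Black bars mark the median of each group. It lies at -0.39 for HSP90 cochaperones, -0.55 for the list of organelle chaperones and -0.34 for the 10 genes described.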

How the data were processed

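Polyadenylated RNA of pooled morulae was made into SMART-seq2 libraries for paired-end DNBSEQ sequencing, per the labels. The submitters' processing notes name Trim Galore, HISAT, HTSeq and GRCm38, and the sources used here give no versions, strand setting or annotation. The authors deposited estimated counts, not normalized, TPM and FPKM for each library, per the file headers. Estimated counts are fractional for 23.2% of genes, which HTSeq does not give by default, and no source used here names the program behind them. The kit does not mark strand, so overlapping antisense genes cannot be told apart. No value column was left unused.

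Counts were rounded and scaled by the TMM method (edgeR 4.0.16, R 4.3.3), a shift of -0.03 in log2 ratios from plain totals. Log2 ratios of dsNat10 to dsGFP had 1 CPM added to each, which understates differences of low genes. Folds are plain CPM ratios with exact (Clopper-Pearson) 95% intervals. Intervals and the floor of 3 counts (0.105 CPM in dsNat10 and 0.104 CPM in dsGFP) cover counting error only, since reads copied by PCR, with no molecular identifiers, are not separate molecules. The size rule was tried on simulated counts that held counting error only, with planted folds larger than those of Dnaja1 and Hspa4. That trial cannot show how the rule deals with the spread between pools or with reads copied by PCR. The genes named were the 10 genes and, from each list, the most abundant by TPM and up to 4 called genes with the largest ratio. The 10 genes and the lists were chosen with earlier results of these data known. Coordinates and promoters came from RefSeq on GRCm38.p6, where 12800 of 12836 Entrez identifiers matched, and transcripts from GENCODE M21 (the longest protein-coding transcript of each gene). Protein sequences were not used here, and identity was taken from coding sequences. Alternatives were plain totals, DESeq2 1.42.0 size factors, other pseudocounts, filters and limits, TPM, FPKM, unrounded counts, leaving out genes with fractional counts, summing the HSP70 pair, and placing genes at 0 at their bound.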

Additional observations from a re-analysis of the deposited data

How the results depend on the processing

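No paired analysis was possible because each group is 1 library, and for the same reason no replicate could be left out. The direction of all 10 genes held under every setting tried, with Hspa4 between 1.19 and 1.26, Hsf1 between 0.40 and 0.47 and Hsp90ab1 between -0.10 and -0.02 on the log2 scale. Hspa1a ranged from -5.53 to -2.46 and Hspa1b from -5.63 to -2.55, and the sum of both lay at -5.58. The smallest sizes came with a pseudocount of 5 CPM, and in FPKM neither copy reached the mean of 5 (-3.26 and -3.35). The count of the 10 genes called higher was 1 under every setting. The 3 called lower became 1 at a minimum mean of 20 CPM, in FPKM and without fractional counts, where the HSP70 pair drops out by construction. The median of the 10 genes moved by 0.1 or less on the log2 scale under every setting. Of other chaperone genes, 5 were called higher and 10 lower. The higher count was 3 of 74 with a pseudocount of 5 CPM, 8 of 87 without a filter and 8 of 74 with a limit of 1.5-fold. The lower count was 17 of 87 without a filter and 23 of 74 at 1.5-fold. It was 6 of 64 at a minimum mean of 20 CPM and 6 of 68 in FPKM or TPM. Of all genes, called higher were 1019 of 8738 with a pseudocount of 5 CPM and 1681 of 12830 without a filter. Called higher were 524 of 5746 at a minimum mean of 20 CPM, 2196 of 8738 at 1.5-fold and 711 of 6655 in FPKM. Called lower were 3252 of 12830 without a filter, 502 of 5746 at a minimum mean of 20 CPM and 2081 of 8738 at 1.5-fold. In TPM 834 of 7445 were called lower, and in FPKM 691 of 6655. The cause of these changes was not tested beyond the number of genes each setting admits. With 1 library per group, the spread between pools of embryos cannot be estimated.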
